A study of Danio rerio with 12 samples.

Results

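AP-1 is a dimeric transcription factor assembled from Fos and Jun proteins, and its subunits are described here as transcripts in the adult zebrafish brain, with and without a working glucocorticoid receptor (GR). A list of 10 Fos, Jun and Jdp2 genes was set with no cut on measured values, but with earlier results of these data known. The members were taken from it by symbol. They came to 11 of the 32520 gene IDs of the tables, because every paralogue was kept where the name table gives the same symbol without its letter, as it does for JDP2. All 11 were among the 20114 genes tested, which reached 10 normalised counts in 6 or more of the 12 libraries.

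The study asked how loss of GR activity alters gene expression in the adult brain. GR-mutant fish carried 2 copies of gr s357, an allele with a missense change in nr3c1, the single GR gene of zebrafish, and wild-type fish were siblings raised from the same in-crosses of heterozygotes. All 12 fish, 6 GR-mutant and 6 wild-type, were males aged 22 months. By the methods, each whole brain kept its olfactory bulbs and pituitary, and it gave 1 poly(A)-selected RNA-seq library. Summed pituitary markers ran from 389 normalised counts in GR-mutant brain 1 to 87419 in GR-mutant brain 3. How much pituitary each library held was not tested. The genotypes lived in separate tanks, so that tank and genotype cannot be told apart. The fish received no treatment beyond terminal anaesthesia before dissection, and by the methods all tissue was taken in the late morning. Brains are numbered as in the labels, 1 to 6 in GR-mutant fish and 1, 2, 3, 4, 5 and 7 in wild-type fish.

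Fos proteins pair poorly with each other and bind DNA mainly beside a Jun protein, whereas Jun proteins also pair among themselves. In neurons, calcium and growth factor signals act through the MAP kinases, SRF and CREB to switch on fos and other immediate-early genes within minutes, which is why these transcripts are widely used as a record of recent activity. Ligand-bound GR is known from mammalian cells to bind Jun and Fos proteins and to restrain AP-1, and stress raises the same immediate-early genes.

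The 12 libraries held 24809137 to 36313866 reads assigned to genes in GR-mutant brains and 24407683 to 37548901 in wild-type brains, so that the members were counted from 28 reads at the least. Values are normalised counts, reads divided by a size factor per library. Their total was 28539104 to 29513949 in GR-mutant brains and 29540644 to 31637122 in wild-type brains. Neuron markers summed to 328428 to 351737 normalised counts in GR-mutant brains and 350795 to 382400 in wild-type brains, with 2 of 15 lower (13.3%) and 0 higher. Radial glia markers summed to 108555 to 128602 in GR-mutant brains and 127448 to 144579 in wild-type brains, with 2 of 9 tested lower (22.2%) and 1 higher (11.1%). Of all genes tested, 9.92% were lower and 7.59% higher. The part of either cell type in the member values was not tested, and in bulk brain RNA fewer cells of a type and less RNA per cell cannot be told apart. The transcript of nr3c1 stood at 4670 to 4955 normalised counts in GR-mutant brains and 4107 to 4567 in wild-type brains (log2 fold change 0.15, limma, adjusted p = 0.0160), which is no check of the labels, as the allele alters the protein.

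Of the 11 members, 5 were lower in GR-mutant brains, namely fosb, fosl2, jun, jund and JDP2 (ENSDARG00000020133), and 0 were higher (limma, Benjamini-Hochberg adjusted p under 0.05). Over all genes tested, 9.92% were lower and 7.59% higher by the same threshold. The same 5 members had every GR-mutant value below every wild-type value, as had 4.92% of all genes tested. With a log2 fold change of -0.58 or less also required, 4 of 11 members remained, against 3.80% of all genes tested, since fosl2 lay at -0.56. The log2 fold change, given throughout as GR-mutant minus wild-type of log2(value + 1), was negative for 11 of 11 members and for 9684 of the 20114 genes tested, with medians of -0.67 and 0.01. The 11 members together summed to 10373 to 15450 normalised counts in GR-mutant brains and 14863 to 22507 in wild-type brains, ranges that overlapped only at GR-mutant brain 2 and wild-type brain 5.

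**Figure D1:**
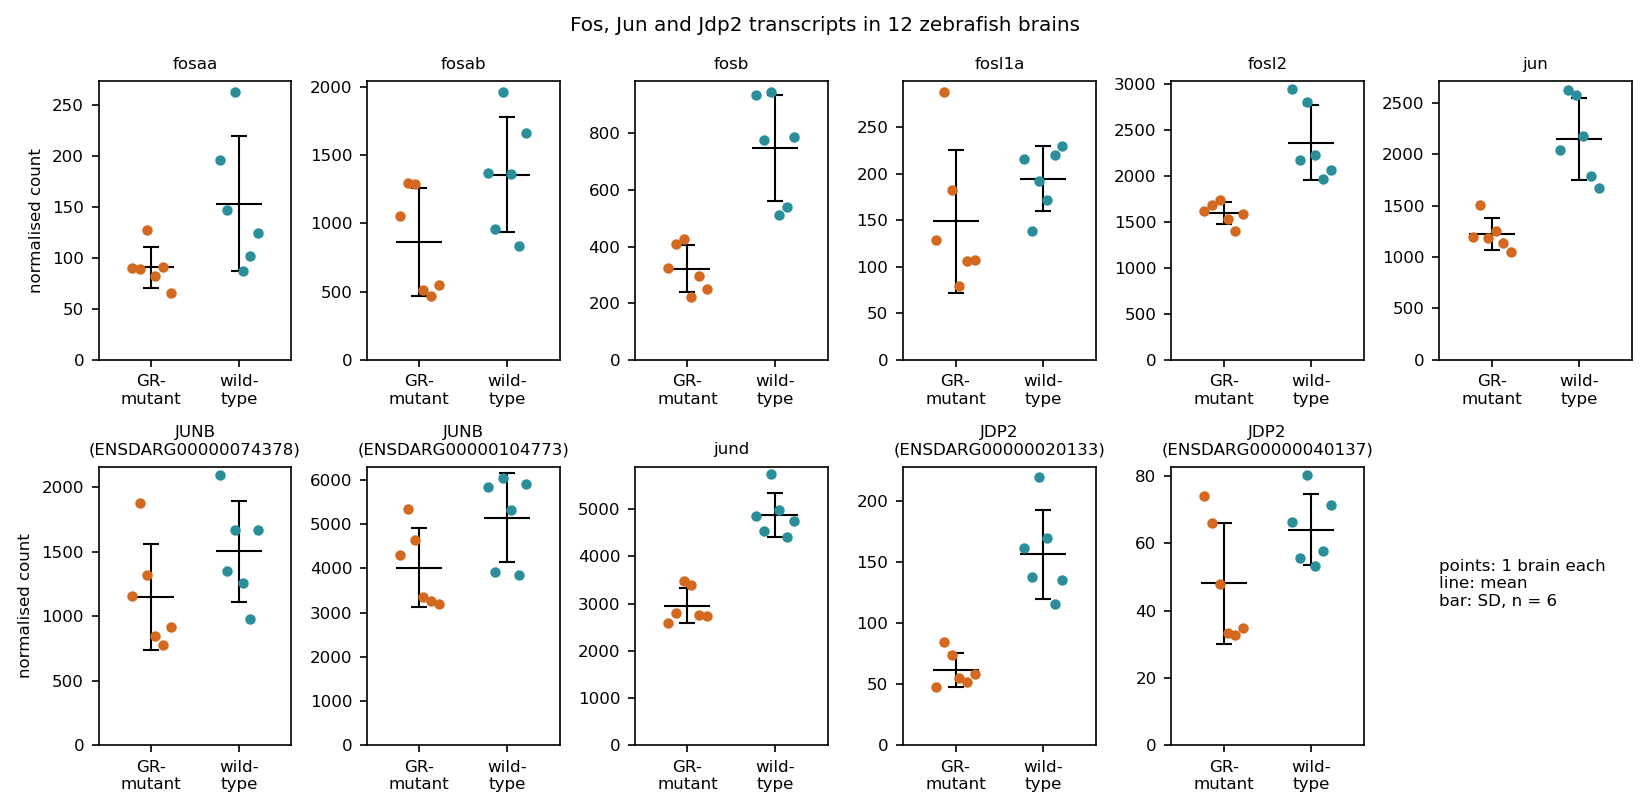
Normalised count of each member in every brain, GR-mutant left and wild-type right in each panel, with 1 point per brain, a line at the mean and a bar for the SD (n = 6 each). The groups are apart for fosb, fosl2, jun, jund and JDP2 (ENSDARG00000020133), and overlap for the other 6 members.

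Among the Fos genes, fosb and fosl2 were lower in GR-mutant brains, and fosaa, fosab and fosl1a did not pass the test. fosb, whose product in mice includes a stable truncated form that builds up under repeated stimulation, had a lowest, median and highest value of 221, 311 and 426 normalised counts in GR-mutant brains and of 511, 782 and 947 in wild-type brains. The groups did not overlap, and the GR-mutant mean was 42.9% of the wild-type mean, 322 ± 82.5 in GR-mutant brains against 750 ± 188 in wild-type brains (SD, n = 6 each). Its log2 fold change was -1.22 with a standard error of 0.19 (limma, adjusted p = 0.000985). A two-sided exact permutation test over the 924 assignments of the libraries gave an unadjusted p of 0.00216, the smallest that it can give, and the permutation p of each other member is unadjusted too.

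fosl2, which encodes Fra-2, a Fos protein with slower induction than c-Fos in mammalian cells, had a lowest, median and highest value of 1400, 1602 and 1737 in GR-mutant brains and of 1965, 2200 and 2952 in wild-type brains. The groups were apart, and the GR-mutant values were close together, with a coefficient of variation of 7.53% in GR-mutant brains and 17.4% in wild-type brains. Its log2 fold change was -0.56 with a standard error of 0.10 (limma, adjusted p = 0.00210; exact permutation p = 0.00216).

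fosab, listed as FOS in the name table and the orthologue of c-fos, split the GR-mutant brains. Brains 1, 2 and 3 held 1056, 1293 and 1286 normalised counts, and brains 4, 5 and 6 held 510, 470 and 548. The wild-type brains held 1366, 955, 1963, 1362, 831 and 1659. The first 3 GR-mutant brains thus lay within the wild-type range, and the other 3 lay below all of it. The split follows the brain numbers, whose meaning the labels do not give, and its cause was not tested. The difference, -0.73 with a standard error of 0.30 on the log2 scale and a 95% interval of -1.37 to -0.09 unadjusted for the number of genes, did not pass (limma, adjusted p = 0.105; exact permutation p = 0.0649).

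fosaa, the other fos paralogue, had a lowest, median and highest value of 65.6, 89.6 and 127 in GR-mutant brains and of 87.1, 136 and 264 in wild-type brains. The groups overlapped, as wild-type brains 4, 5 and 7, at 87.1, 102 and 124, lay below the highest GR-mutant brain, and wild-type values spread 3.03-fold. The log2 fold change of -0.67 with a standard error of 0.25 missed the threshold over all genes (limma, unadjusted p = 0.0173, adjusted p = 0.0784; exact permutation p = 0.0303). It passed with DESeq2 on the recovered reads, with an adjusted p of 0.0253, and limma without wild-type brain 4 gave an adjusted p of 0.0404.

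fosl1a, listed as FOSL1 and encoding Fra-1, had a lowest, median and highest value of 79.7, 118 and 289 in GR-mutant brains and of 139, 204 and 230 in wild-type brains. GR-mutant brain 2, at 289, was the highest of all 12 libraries, and 4 of the other 5 GR-mutant brains lay below the lowest wild-type brain. The log2 fold change was -0.50 with a standard error of 0.26 (limma, adjusted p = 0.202), and without GR-mutant brain 2 it passed (limma, adjusted p = 0.0280). That brain also had the highest sum of microglia and macrophage markers, 19643 normalised counts, against 7315 to 10826 in the other GR-mutant brains and 9698 to 14348 in wild-type brains. Of 10 tested markers of this list 1 was lower and 1 higher in GR-mutant brains, against 9.92% and 7.59% of all genes tested. The part of these cells in the fosl1a value was not tested.

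**Figure D2:**
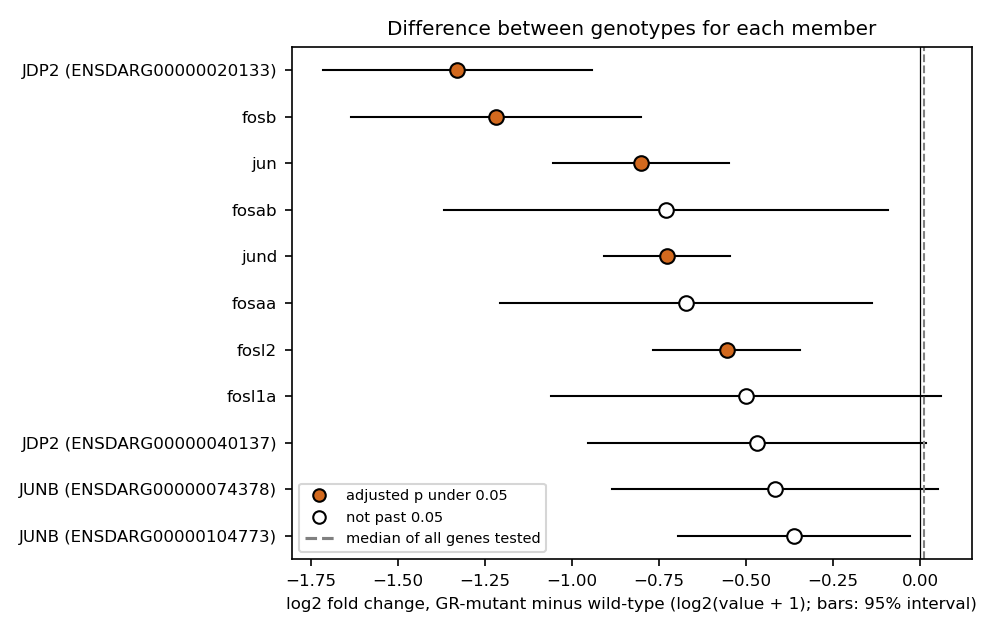
Difference in mean log2(value + 1) of each member, GR-mutant minus wild-type, with its 95% interval (n = 6 each, unadjusted for the number of genes). Filled points are the 5 members past an adjusted p of 0.05, open points the other 6, and the dashed line is the median of all genes tested, 0.01.

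Among the Jun genes, jun and jund were lower in GR-mutant brains and the JUNB pair did not pass. jun, which encodes c-Jun, the usual partner of c-Fos and a substrate of the JNK kinases, had a lowest, median and highest value of 1046, 1192 and 1512 in GR-mutant brains and of 1673, 2112 and 2632 in wild-type brains. The groups did not overlap, and the GR-mutant mean was 56.9% of the wild-type mean. On the log2 scale the difference was -0.80 with a standard error of 0.12 (limma, adjusted p = 0.000555; exact permutation p = 0.00216).

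jund (ENSDARG00000067850), whose mammalian counterpart is expressed without stimulation in most tissues, had a lowest, median and highest value of 2597, 2772 and 3473 in GR-mutant brains and of 4406, 4802 and 5743 in wild-type brains. The groups lay well apart, at 2957 ± 378 in GR-mutant brains against 4880 ± 471 in wild-type brains (SD, n = 6 each). Its difference of -0.73 with a standard error of 0.08 had the smallest adjusted p of the 11 members (limma, adjusted p = 7.17e-05; exact permutation p = 0.00216). Pooled over both genotypes, the spread of jund within them was also the smallest of the members. Of all genes tested, 36.1% varied less than jund and 88.6% less than fosab. fosab and jund therefore had the same difference between genotypes on the log2 scale, -0.73, with a standard error of 0.30 for fosab and 0.08 for jund. In GR-mutant brains alone, fosl2 and jun varied less than jund, with log2 SDs of 0.111, 0.178 and 0.179.

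JunB competes with c-Jun in mammalian cells and limits part of its activity. JUNB (ENSDARG00000074378) had a lowest, median and highest value of 773, 1035 and 1879 in GR-mutant brains and of 978, 1509 and 2093 in wild-type brains. JUNB (ENSDARG00000104773) had 3189, 3832 and 5345 in GR-mutant brains and 3859, 5580 and 6040 in wild-type brains. Both overlapped between the genotypes, and GR-mutant brain 2 was the highest GR-mutant brain in both. The log2 fold change of JUNB (ENSDARG00000074378) was -0.42 with a standard error of 0.22 (limma, adjusted p = 0.205), and that of JUNB (ENSDARG00000104773) was -0.36 with a standard error of 0.15 (limma, adjusted p = 0.122). The name table gives no letter for either. In table order JUNB (ENSDARG00000074378) shares 6 neighbours with RefSeq junba and 0 with junbb, and JUNB (ENSDARG00000104773) shares 6 with junbb and 0 with junba.

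Jdp2 is a Jun dimerisation partner that in mammalian cells represses transcription from AP-1 sites. JDP2 (ENSDARG00000020133) had a lowest, median and highest value of 47.9, 56.5 and 84.3 in GR-mutant brains and of 115, 150 and 220 in wild-type brains. The groups did not overlap, and the GR-mutant mean was 39.4% of the wild-type mean, the lowest share among the 11 members. On the log2 scale the difference was -1.33 with a standard error of 0.18 (limma, adjusted p = 0.000289; exact permutation p = 0.00216). JDP2 (ENSDARG00000040137) had 32.9, 41.4 and 74.1 in GR-mutant brains and 53.2, 62.0 and 80.3 in wild-type brains. Here GR-mutant brains 1 and 2 lay among the wild-type brains and brains 3 to 6 below all of them, and the difference of -0.47 with a standard error of 0.23 did not pass (limma, adjusted p = 0.168). JDP2 (ENSDARG00000020133) shares 5 neighbours with RefSeq jdp2b and 0 with jdp2a, and JDP2 (ENSDARG00000040137) shares 7 with jdp2a and 0 with jdp2b. The 5 lower members thus included Fos and Jun subunits and 1 of the JDP2 paralogues, the genes of a repressor.

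The other Fos and Jun genes of the tables, which the list of members did not hold, did not pass. june had 941 ± 65.1 normalised counts in GR-mutant brains and 937 ± 105 in wild-type brains (log2 fold change 0.01; limma, adjusted p = 0.937). fosl1b had 24.2 ± 5.25 in GR-mutant brains and 22.1 ± 5.53 in wild-type brains (log2 fold change 0.13; limma, adjusted p = 0.730). fosl2l had 55.1 ± 15.4 in GR-mutant brains and 49.1 ± 20.6 in wild-type brains (log2 fold change 0.22; limma, adjusted p = 0.609). Reads that fit more than 1 paralogue could be lost in the counting, so that levels of close paralogues carry this uncertainty.

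Within a genotype, the members were often high or low in the same brains. Wild-type brain 3 was the highest of all 12 libraries for 7 of the 11 members, and wild-type brain 5 was the lowest wild-type brain for 6. Among GR-mutant brains, brain 2 was the highest for 6 members and brain 3 for 4. GR-mutant brains 4, 5 and 6 were the 3 lowest GR-mutant brains for fosab, fosb, fosl1a, fosl2, both JUNB genes and JDP2 (ENSDARG00000040137).

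To put a number on this, each genotype's mean was subtracted and the members were set against fosab over the 12 libraries, which gave 10 relations with permutation tests within genotype. JUNB (ENSDARG00000104773) followed fosab most closely, with a Pearson r of 0.94 (permutation p = 9e-05, adjusted p = 0.000900) and a Spearman rho of 0.89 (permutation p = 3e-05, adjusted p = 0.000300). JUNB (ENSDARG00000074378) had an r of 0.84 (permutation p = 0.00280, adjusted p = 0.0140) and a rho of 0.90 (permutation p = 0.000670, adjusted p = 0.00335). JDP2 (ENSDARG00000040137) had an r of 0.83 (permutation p = 0.00894, adjusted p = 0.0298) and a rho of 0.85 (permutation p = 0.00811, adjusted p = 0.0162). These 3 members, which did not pass between the genotypes, were therefore those that tracked fosab most closely within them. Without GR-mutant brains 4 and 5, the libraries farthest from the fosab median, r was 0.95 for JUNB (ENSDARG00000104773), 0.76 for JUNB (ENSDARG00000074378) and 0.72 for JDP2 (ENSDARG00000040137).

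fosb had an r of 0.73 (permutation p = 0.0149, adjusted p = 0.0342) and a rho of 0.78 (permutation p = 0.00569, adjusted p = 0.0142), and fosl2 an r of 0.59 (permutation p = 0.0239, adjusted p = 0.0342) and a rho of 0.71 (permutation p = 0.00227, adjusted p = 0.00757). For fosl1a, r was 0.71 (permutation p = 0.0188, adjusted p = 0.0342) and rho 0.69 (permutation p = 0.0398, adjusted p = 0.0568). For JDP2 (ENSDARG00000020133), r was 0.68 (permutation p = 0.0239, adjusted p = 0.0342) and rho 0.64 (permutation p = 0.0365, adjusted p = 0.0568). The rank measure thus passed for fosb and fosl2 and not for fosl1a or JDP2 (ENSDARG00000020133). Without GR-mutant brains 4 and 5, r was 0.70 for fosb, 0.51 for fosl2, 0.57 for fosl1a and 0.65 for JDP2 (ENSDARG00000020133). For fosl1a, r was 0.85 over the GR-mutant brains alone and 0.27 over the wild-type brains alone. In the same order r was 0.88 and 0.55 for fosb, 0.87 and 0.57 for fosl2, and 0.63 and 0.78 for JDP2 (ENSDARG00000020133). These differences between genotypes were not tested.

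fosaa, jun and jund did not pass by either measure. fosaa had an r of 0.49 (permutation p = 0.0776, adjusted p = 0.0971) and a rho of 0.43 (permutation p = 0.134, adjusted p = 0.168). jun had an r of 0.30 (permutation p = 0.323, adjusted p = 0.325) and a rho of 0.41 (permutation p = 0.180, adjusted p = 0.200). jund had an r of 0.33 (permutation p = 0.325, adjusted p = 0.325) and a rho of 0.37 (permutation p = 0.289, adjusted p = 0.289), and its r was 0.06 over the 6 GR-mutant brains and 0.85 over the 6 wild-type brains, a difference that was not tested. Without GR-mutant brains 4 and 5, r was 0.60 for fosaa, 0.34 for jun and 0.63 for jund.

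Members aside, tested genes with a symbol and a mean of at least 50 normalised counts were ranked by this measure over the 12 libraries. Those most like fosab were BTG2 (r = 0.97), an inhibitor of cell division, ier2b (0.94) and GPR26 (0.92), an orphan receptor. Next came NPAS4 (ENSDARG00000055752; 0.90), a factor induced by neuronal activity, and ier2a (0.90). Apart from GPR26, all these genes are immediate-early genes. NPAS4 (ENSDARG00000055752), a neighbour of fosl1a in table order, stood at 4930 ± 1796 normalised counts in GR-mutant brains and 11452 ± 2481 in wild-type brains (log2 fold change -1.26; limma, adjusted p = 0.00143), without overlap. BTG2 was lower without overlap (-0.96; limma, adjusted p = 0.00201). GPR26 (-0.71; limma, adjusted p = 0.0199) and ier2b (-0.63; limma, adjusted p = 0.0496) were lower with overlap. ier2a did not pass (-0.41; limma, adjusted p = 0.235).

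**Figure D3:**
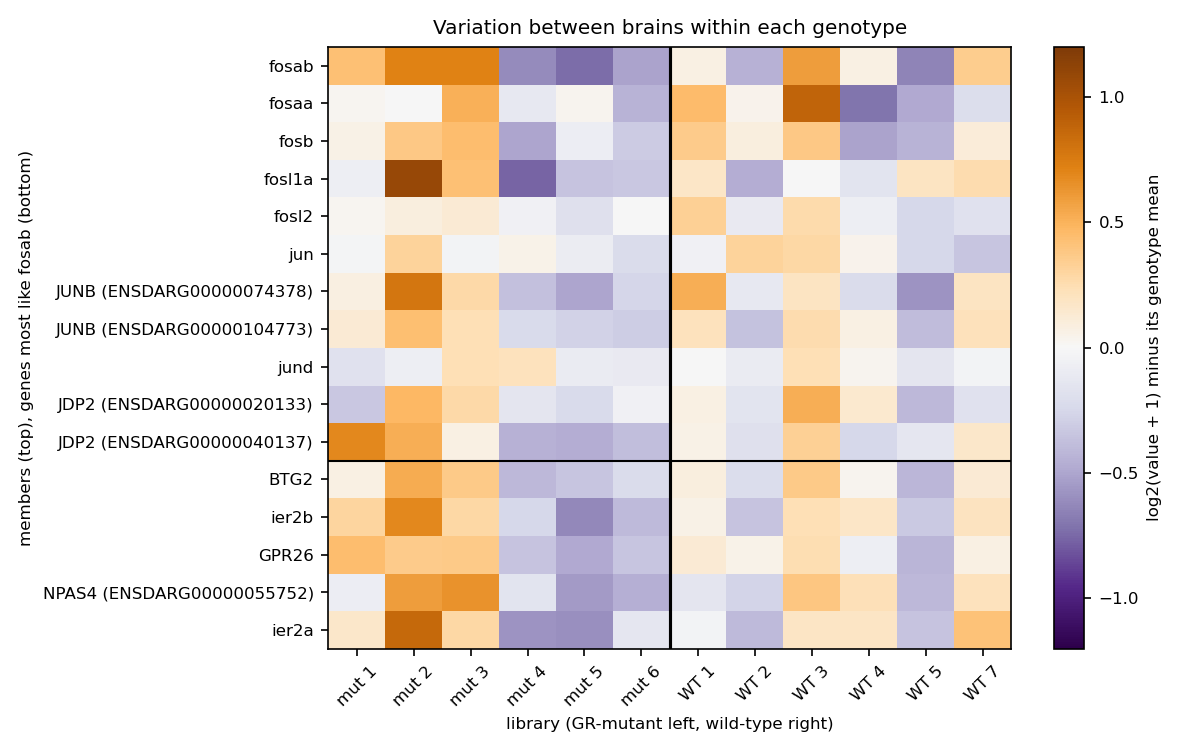
Log2(value + 1) of each gene minus the mean of its genotype, by library, with GR-mutant libraries left and wild-type libraries right. The members are above the line and the 5 non-members most like fosab below it. GR-mutant brains 2 and 3 and wild-type brain 3 are mostly above their genotype's mean, and GR-mutant brains 4 to 6 and wild-type brain 5 mostly below it. Of the members, jund varies least over both genotypes pooled.

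Of 36 tested upstream regulators, the kinases and factors that act on fos and jun, 6 were lower (16.7%) and 1 higher (2.78%) in GR-mutant brains, against 9.92% and 7.59% of all genes tested, and their median log2 fold change was -0.02. SRF (ENSDARG00000053918), which binds the serum response element of fos, had 353 ± 36.8 normalised counts in GR-mutant brains and 536 ± 86.0 in wild-type brains, without overlap (log2 fold change -0.59; limma, adjusted p = 0.00210). CAMK4, a calcium-activated kinase of CREB, was lower by a small step (log2 fold change -0.26; limma, adjusted p = 0.000707), and so was MAPK14 (ENSDARG00000000857), a p38 kinase (-0.27; limma, adjusted p = 0.0169). The second MAPK14 gene, ENSDARG00000028721, did not pass (-0.12; limma, adjusted p = 0.0837). MAPK7, which encodes the kinase ERK5, was higher, with 840 ± 23.7 normalised counts in GR-mutant brains and 681 ± 55.7 in wild-type brains (0.31; limma, adjusted p = 0.00385). With libraries scaled to equal totals, 2 of these regulators were lower and 5 higher, and 6.52% of all genes tested were lower and 15.0% higher.

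Relatives of AP-1 with the same kind of leucine zipper were lower in 3 of 31 tested cases (9.68%) and higher in 1 (3.23%), with a median log2 fold change of 0.03, and the lower share was close to the 9.92% of all genes tested. BATF, a Jun partner known from mammalian immune cells, had 121 ± 9.02 normalised counts in GR-mutant brains and 195 ± 22.9 in wild-type brains, without overlap (log2 fold change -0.68; limma, adjusted p = 0.000626). maff, a small Maf protein gene, was lower (-0.27; limma, adjusted p = 0.00788), as was ATF7 (ENSDARG00000055481), a partner of Jun in mammals (-0.19; limma, adjusted p = 0.00472). The second ATF7 gene, ENSDARG00000011298, had a positive log2 fold change and did not pass (0.34, limma, adjusted p = 0.145). bach1a, a repressor that pairs with small Maf proteins, was higher (0.38; limma, adjusted p = 0.0393). With equal totals, 2 were lower and 3 higher, where 6.52% of all genes tested were lower and 15.0% higher. The list of relatives also holds fosl1b and fosl2l, and it shares maff and ATF3 with the immediate-early genes.

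Of the 42 tested immediate-early genes, which are switched on by the same signals as fos, 21 were lower in GR-mutant brains and 1 was higher. The median log2 fold change of the immediate-early genes was -0.40, against 0.01 for all genes tested, of which 9.92% were lower and 7.59% higher. With equal totals 19 were lower and 1 higher, where 6.52% of all genes tested were lower and 15.0% higher. DUSP2 was at 360 ± 71.6 normalised counts in GR-mutant brains and 1139 ± 281 in wild-type brains (log2 fold change -1.65; limma, adjusted p = 1.15e-05). DUSP1, which like DUSP2 encodes a phosphatase that switches MAP kinases off, had a log2 fold change of -1.43 (limma, adjusted p = 7.47e-05). PER1 (ENSDARG00000056885) and PER2, at -1.51 (limma, adjusted p = 2.72e-05) and -0.69 (limma, adjusted p = 0.000256), are core genes of the circadian clock as well. The list thus mixes activity-induced genes with clock genes, and DUSP1 and PER1 are in mammals direct targets of GR. The gene that was higher was ZFP36L1 (ENSDARG00000016154), which encodes a protein that speeds mRNA decay (0.76; limma, adjusted p = 0.00533).

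Of 39 tested genes known as AP-1 targets, 4 were lower and 6 higher, with a median log2 fold change of 0.08. The lower share of 10.3% was close to that of all genes tested, 9.92%, and the higher share was 15.4%, against 7.59%. With equal totals 3 were lower and 9 higher, where 6.52% of all genes tested were lower and 15.0% higher. BDNF, a neurotrophin induced by activity, had 2974 ± 273 normalised counts in GR-mutant brains and 4055 ± 392 in wild-type brains (log2 fold change -0.45; limma, adjusted p = 0.00120). lgals3a, a galectin gene, was lower as well (-0.26; limma, adjusted p = 0.0131). MMP14 (ENSDARG00000002235), a membrane-bound matrix metalloproteinase, was higher (0.48; limma, adjusted p = 0.0114).

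**Figure D4:**
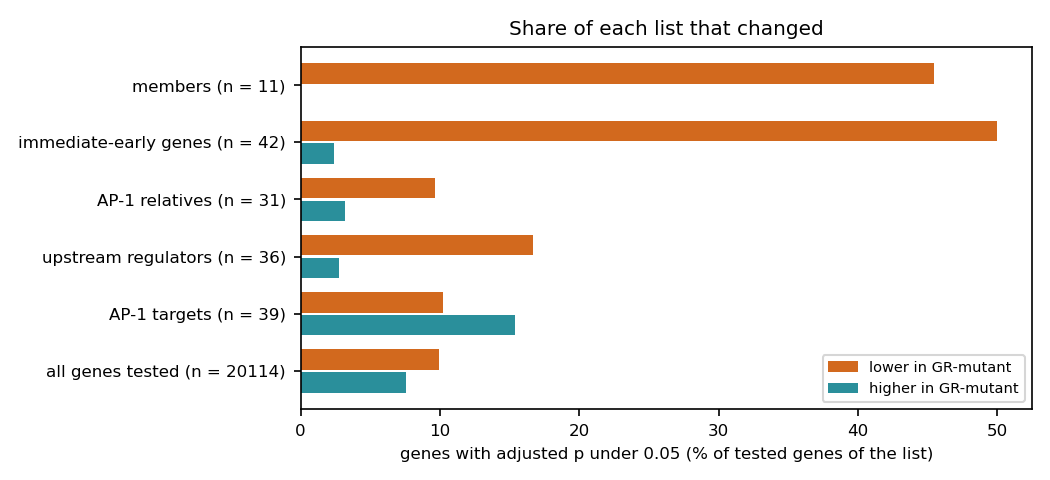
Share of the tested genes of each list with a limma adjusted p under 0.05, lower in GR-mutant brains above and higher in GR-mutant brains below for each list, in percent, with the number tested beside each name. The members have 5 of 11 lower and 0 higher, the immediate-early genes 21 of 42 lower and 1 higher, and all genes tested are at 9.92% lower and 7.59% higher.

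Some members stand beside each other or beside changed genes in the order of the deposited tables. Within 5 rows on either side, 68 of 92 neighbours were tested, of which 12 were lower (17.6%) and 7 higher (10.3%), against 9.92% and 7.59% of all genes tested, and 6 of the 12 lay around fosl1a. fosab, BATF and JDP2 (ENSDARG00000020133) stand within 3 rows of each other, and si:ch211-153j24.3, 1 row before fosab, was lower too (log2 fold change -0.85; limma, adjusted p = 0.0234). fosaa and JDP2 (ENSDARG00000040137) stand on adjacent rows, and 0 of their 5 tested neighbours had an adjusted p under 0.05 by limma. Both fos genes are thus paired with a JDP2 gene. The JDP2 gene beside fosab was lower in GR-mutant brains, and the one beside fosaa did not pass, though the difference between the 2 genes was not tested.

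Around fosl1a, 6 of 8 tested neighbours were lower and 0 higher. They were NPAS4 (ENSDARG00000055752) and, with smaller log2 fold changes, ATL3 (-0.49), FIBP (ENSDARG00000016058; -0.41), CCDC85B (-0.30), YIF1A (-0.22) and CFL1 (-0.19). fosl1a stands 124 rows from nr3c1, and by RefSeq it is the 1 member on the same chromosome as nr3c1. Sequence linked to the allele is shared by GR-mutant siblings, so for genes near nr3c1 its effect and that of the allele cannot be told apart. Around jund, 1 of 8 tested neighbours, PGPEP1 on the next row, was lower (-0.75; limma, adjusted p = 0.00969) and 3 were higher.

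**Figure D5:**
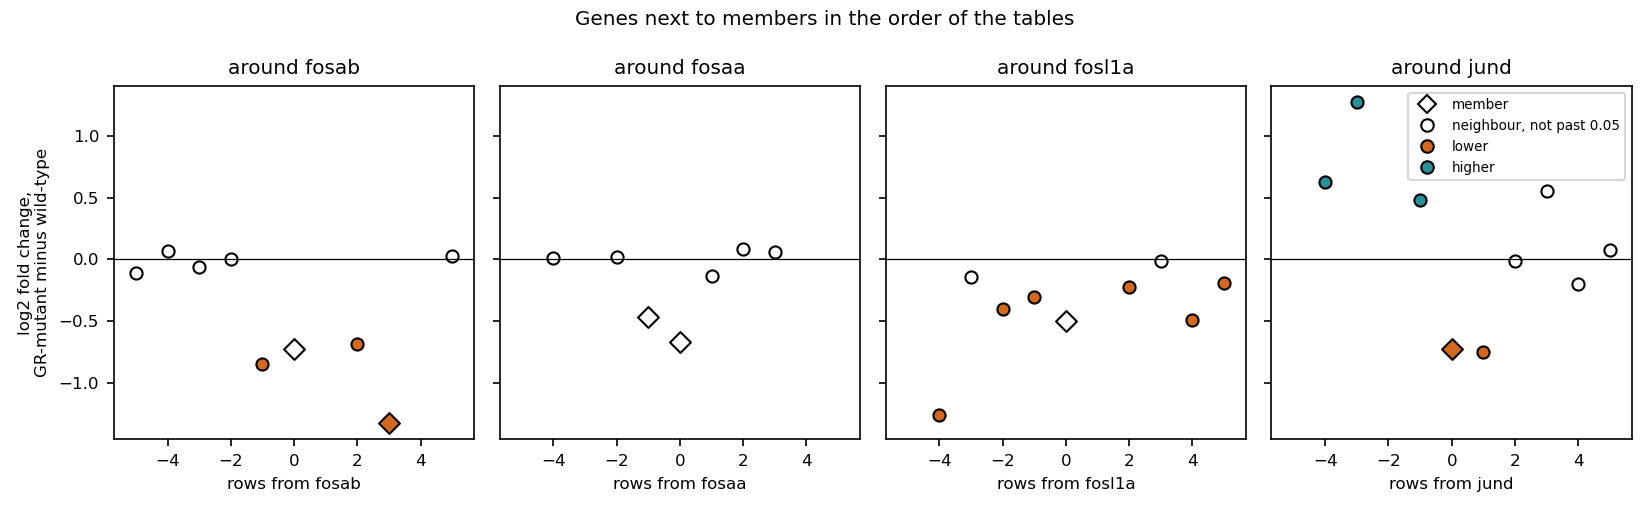
Log2 fold change, GR-mutant minus wild-type, of tested genes within 5 rows of fosab, fosaa, fosl1a and jund, against the number of rows from the member. Diamonds are members, with JDP2 (ENSDARG00000020133) in the fosab panel and JDP2 (ENSDARG00000040137) in the fosaa panel, circles are neighbours, and filled marks passed an adjusted p of 0.05, 6 of them around fosl1a.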

How the data were processed

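The authors trimmed the reads with Trimmomatic (version 3.9 in the submitters' processing notes), removed ribosomal reads with SortmeRNA, used STAR for alignment to GRCz11 and for counting, and scaled each library with DESeq2 by median of ratios. Each brain has 1 deposited table, and its unit is a signal, the normalised count of each gene. The kit was directional, but no source read gives the strand setting of the counts, so that counts of overlapping genes are uncertain. In each library 100% of values were whole multiples of the value of 1 read, within 0.001 read, and the recovered reads served only the count tests. No library pair was a duplicate, as any 2 libraries differed in at least 24900 genes.

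The log2(normalised count + 1) values were fitted over 20114 genes with limma 3.58.1 (R 4.3.3), using its mean-variance trend, rather than with DESeq2, the study's tool, because the files hold scaled values. Calls were made at a Benjamini-Hochberg adjusted p under 0.05. Single genes were also tested over the 924 assignments of the libraries, and correlations with 100000 resamples within genotype. P-values measure the spread between brains, each from a separate fish. Alternatives were pseudocounts of 0.5 and 5, no filter, a mean of at least 100, upper-quartile and equal-total scaling, a replicate block, edgeR (4.0.16), DESeq2 (1.42.0), limma without the trend, and leaving out each library. The neighbour windows, the markers summed per library and the fit without a block over 10 libraries were chosen after seeing the data.

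The members and lists were chosen with earlier results of these data known. The genes named are all members, the 5 non-members most like fosab, and nr3c1. From each list, up to 4 called members with the smallest adjusted p were named. Other Fos and Jun genes, neighbours and the second ATF7 and MAPK14 genes were named after their values were seen. So was ZFP36L1, the 1 immediate-early gene that was higher. The name table had a symbol for 29201 of the 32520 gene IDs, and 6314 of these shared theirs. RefSeq served only for names, neighbours and chromosomes, since its assembly is another build. Listed markers summed over other cell types were also computed, in normalised counts. Oligodendrocyte markers were at 178270 to 386630 in GR-mutant brains and 240748 to 310156 in wild-type brains, with 0 of 8 tested lower and 1 higher. Endothelial markers were at 4017 to 5748 in GR-mutant brains and 3799 to 4425 in wild-type brains, with 1 of 9 tested lower (11.1%) and 3 higher (33.3%). Red blood cell markers were at 2871 to 7996 in GR-mutant brains and 3246 to 7210 in wild-type brains, with 1 of 5 tested lower and 1 higher. Pituitary markers were at 389 to 87419 in GR-mutant brains and 6803 to 46116 in wild-type brains, with 0 of 9 tested lower and 1 higher. Skeletal muscle markers were at 179 to 17543 (brain 5) in GR-mutant brains and 194 to 9927 (brain 1) in wild-type brains, with 1 of 6 tested lower and 0 higher. Of all genes tested, 9.92% were lower and 7.59% higher. 1 gene that the naming rule takes is not reported here. Sequences were not used here. Plots were made in Python 3.11.15 with matplotlib 3.10.9.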

Additional observations from a re-analysis of the deposited data

How the results depend on the processing

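The 5 members that were lower in GR-mutant brains kept their sign and stayed past the threshold in all 23 other fits, where their limma, edgeR or DESeq2 adjusted p was at most 0.00946. Among 252 values of single members under these fits, 0 changed sign, 0 lost a call and 3 gained one, for fosaa (DESeq2, and without wild-type brain 4) and fosl1a (without GR-mutant brain 2). Unadjusted, 8 members had a limma p under 0.05 and 6 an exact permutation p under 0.05, since fosab (limma 0.0278, exact permutation 0.0649) and JUNB (ENSDARG00000104773; 0.0351 and 0.0736) passed only the first. The count of lower members was therefore 5 or 6, and 6 with DESeq2. Without 1 library at a time it was 5 to 6, and the count of higher members was 0. Adjusted p ranged from 0.0253 to 0.157 for fosaa, 0.0579 to 0.275 for fosab, 0.0280 to 0.451 for fosl1a, 0.0540 to 0.410 and 0.0533 to 0.322 for the JUNB genes, and 0.0761 to 0.366 for JDP2 (ENSDARG00000040137), which has no value at a mean of at least 100. With a replicate block over the 10 libraries whose number both genotypes share, 5 members were lower and 0 higher. Same-numbered brains did not deviate together (correlations -0.15 to 0.08). Such values cannot exclude that same-numbered fish were handled together, and the labels do not say. Over all genes, 1996 were lower and 1527 higher, which became 1312 and 3023 at equal totals and 1359 and 965 with the replicate block (1701 and 1330 for the same 10 libraries with no block, added after seeing the data). The median log2 fold change of the members ranged from -0.77 without GR-mutant brain 3 to -0.50 without wild-type brain 3. List counts ranged, lower and higher, over 15 to 22 and 1 to 2 for the immediate-early genes, 2 to 5 and 0 to 3 for the AP-1 relatives, 2 to 7 and 1 to 5 for the upstream regulators, and 3 to 4 and 2 to 9 for the AP-1 targets. The causes were not tested. The shallowest member value rested on 28 reads, in JDP2 (ENSDARG00000040137), and how depth limits the members was not tested.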
